A study of Zea mays with 12 samples.

Results

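Maize (Zea mays) treated with BV-3 was compared with CK, its untreated control, over both disease classes at once: all 6 BV-3 libraries against all 6 CK libraries. BV-3 is a Bacillus strain, named in the study's title as Bacillus velezensis. A gene is described here when all 6 BV-3 levels lay above, or all 6 lay below, all 6 CK levels. That held for 868 of the 34291 genes with enough counts to test, of 52932 genes in the table. Of these 868 genes, 441 lay above CK and 427 lay below CK.

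The 12 libraries of messenger RNA fell into 4 groups of 3: BV-3 plants labelled susceptible, BV-3 plants labelled resistant, CK plants labelled susceptible and CK plants labelled resistant. The labels give the tissue as the whole body of the plant and give neither the plants' age, the dose nor the time of harvest. The titles of BV-3 samples end in gan for the susceptible class and kang for the resistant class, and those of CK samples end in 986 for the susceptible class and 801 for the resistant class, with nothing to say what these stand for. Each library is a biological sample of its own by its label, which leaves unsaid whether plants were pooled, and the p-values measure the spread between these samples. Levels are the deposited FPKM values (fragments mapped to a gene, scaled by its length and by the library's mapped total), and each gene carries the name of the most similar described protein in the table.

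Bacillus velezensis lives in soil and on roots and is used against plant diseases. Plants sense molecules of microbes with receptor kinases at the cell surface, which act through calcium, MAP kinases and WRKY transcription factors, while jasmonate and ethylene carry the signal further. Many plant genes also follow the day, driven by a clock in which the myb-type factor LHY peaks around dawn and represses genes of the evening.

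The libraries held 32.3 to 37.8 M (mega) counts under BV-3 and 27.0 to 36 M counts under CK. Genes that mark a maize line went against 2 labels. Of 339 genes that only the BV-3 libraries labelled resistant expressed, CK libraries susceptible 2 and 3 detected 94.4 and 95.0%, and of 246 genes that only the BV-3 libraries labelled susceptible expressed they detected 0.813 and 1.63%. The library labelled CK susceptible 1 showed the opposite, with 0.59% and 98.0%. By these markers 5 of the 6 CK libraries matched the BV-3 libraries labelled resistant, against 3 of the 6 BV-3 libraries. BV-3 and the maize line therefore cannot be fully told apart in this contrast, and the class term of the fit follows the labels. Of the 585 line markers, 1 was among the genes called for BV-3 against CK, and none could easily lie apart by treatment, since each is absent from 3 BV-3 libraries by its definition. Being present or absent by line, these markers cannot show how far smaller line differences enter the calls. The library labelled CK resistant 2 stood apart: its 87 green shoot markers summed to 2370 FPKM, against 16600 to 52700 FPKM in BV-3 libraries, and its cytosolic ribosomal protein genes summed to 81900 FPKM, against 9560 to 21600 FPKM in BV-3 libraries. Green shoot markers were present in all 12 libraries, while the 19 root markers summed to 19.8 to 111 FPKM (median 41.0) under BV-3 and 3.64 to 379 FPKM (median 8.62) under CK. The root markers include 8 genes for high-affinity nitrate transport, of which 3 lay above CK by the definition used here. In whole plants, fewer cells of a type and less RNA per cell cannot be told apart.

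The share of genes without overlap was 2.53% of those tested, 1.29% above CK and 1.25% below CK. The genes above CK moved further. Their median log2 fold change was 1.91, or 3.75-fold, and 205 of the 441 (46.5%) differed at least 4-fold. The genes below CK had a median log2 fold change of -1.29, or 2.45-fold, and 146 of the 427 (34.2%) differed at least 4-fold. The median over all genes tested was -0.03. The choice of genes fixes these directions, and the medians describe size only. Their levels were ordinary, with median means of 6.39 FPKM for the genes above CK, 6.47 FPKM for those below and 4.76 FPKM for all genes tested. Of the genes above CK, 330 had an informative name, against 209 of those below.

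Most genes lay close to the limit of the definition. Only 15 genes above CK and 2 below had a gap of 2-fold or more, where the gap is the ratio of the lowest level of the higher group to the highest level of the lower group, with 1 FPKM added to both. The gap was under 1.1-fold for 228 genes above and 233 below. Just inside the limit, a TIFY 11b gene (Zm00001eb061650) had its lowest BV-3 level at 4.28 FPKM and its highest CK level at 4.27 FPKM. Just outside it, an RNA helicase (Zm00001eb116270) had 26.9 FPKM for both. A further 359 genes would lie above CK, and 250 below, if the order of 1 pair of libraries were reversed. The CK library nearest to the BV-3 levels was most often resistant 3 for the genes above (147 of 441) and susceptible 1 for the genes below (114 of 427).

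edgeR's quasi-likelihood test, with disease class as a term and Benjamini-Hochberg adjustment, called 601 genes at an adjusted p under 0.05, which is 1.75% of those tested, while 7331 had an unadjusted p under 0.05. BV-3 was higher for 345 of them (1.01%) and lower for 256 (0.747%). Of the genes without overlap, 200 of 441 above and 170 of 427 below were called. Both measures use the same libraries, so a call among these genes is no separate evidence. The 231 called genes that did overlap are not described further, apart from counts within gene groups and 1 clock gene.

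The number of calls depended on single libraries. It was 9 without BV-3 susceptible 1, 8 without BV-3 susceptible 2, 256 without BV-3 susceptible 3, 2 without BV-3 resistant 1, 5 without BV-3 resistant 2 and 516 without BV-3 resistant 3. It was 1194 without CK susceptible 1, 11 without CK susceptible 2, 2 without CK susceptible 3, 38 without CK resistant 1, 2514 without CK resistant 2 and 222 without CK resistant 3. Without CK susceptible 2 and 3, whose markers went against their label, no gene was called (0), and 4430 had an unadjusted p under 0.05. Every adjusted p below belongs to the fit of all 12 libraries. The 24 genes named by the size of their gap (12 per direction, with an informative name and a higher-group mean of 5 FPKM or more) kept an unadjusted p under 0.05 in each of these 13 fits, and between 0 and 24 of them kept their call. They were picked for their gap in these same libraries, and leaving libraries out cannot undo that gap. Their small unadjusted p is therefore no separate support.

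The largest gap of all was in a clock gene. An LHY gene (Zm00001eb415770) lay at 120 to 732 FPKM (median 407) in BV-3 libraries, against 6.31 to 17.5 FPKM (median 9.24) in CK libraries. It rose 40.3-fold in the edgeR fit (log2 fold change 5.33 ± 0.50, standard error, adjusted p = 0.00763). Its neighbour in the identifier order, also named LHY (Zm00001eb415760), lay at 169 to 1050 FPKM in BV-3 libraries, against 11.3 to 34.7 FPKM in CK libraries (log2 fold change 4.76 ± 0.52, adjusted p = 0.0152). Reads could be shared between such near copies. The LHY gene Zm00001eb172450 rose as well (log2 fold change 2.92, adjusted p = 0.0377), with an overlap between 1 BV-3 library at 198 FPKM and 1 CK library at 203 FPKM.

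Some further genes without overlap, all but PRR95 and the B-box gene picked after the values were seen, have known roles in the clock or in light signalling. LNK1 (Zm00001eb392400), which in Arabidopsis works with LHY-like factors to activate clock genes, lay at 78.5 to 149 FPKM in BV-3 libraries, against 5.69 to 46.6 FPKM in CK libraries (log2 fold change 2.76 ± 0.47, adjusted p = 0.0326). The pseudo-response regulator gene PRR95 (Zm00001eb319590), a clock repressor of the day that is on the list of later clock genes, lay at 6.83 to 55.8 FPKM in BV-3 libraries, against 0.776 to 4.73 FPKM in CK libraries (2.99 ± 0.62, adjusted p = 0.0413). HY5, a light-signalling factor (Zm00001eb385610), had a median of 13.3 FPKM under BV-3 and 2.51 FPKM under CK (2.67 ± 0.37, adjusted p = 0.0234). The genes for the UV-B receptor UVR8 (Zm00001eb148070, 2.81 ± 0.52, adjusted p = 0.0352) and for B-box protein 32 (Zm00001eb389190, 3.54 ± 0.47, adjusted p = 0.023) rose too, the second as 1 of 2 genes above and 0 below among 40 CONSTANS and B-box genes, with a median of 0.20. An early light-induced protein gene (Zm00001eb116960), whose product binds chlorophyll under strong light, lay at 12.9 to 430 FPKM (median 26.3) in BV-3 libraries, against 0.633 to 7.69 FPKM (median 3.12) in CK libraries (4.87 ± 0.74, adjusted p = 0.0319). The level of 430 FPKM came from 1 library, BV-3 susceptible 3.

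Clock genes as a whole were mixed. Of 18 morning genes 2 lay above CK without overlap and 3 were called higher, and their median log2 fold change was 0.40. Of 24 genes of later hours 1 lay above CK and was called, with a median of -0.55. The wider KEGG pathway of the plant circadian rhythm, with 165 genes, held 5 above (3.03%) and 1 below (0.606%), with a median of 0.10. Over all genes tested the shares were 1.29% and 1.25%. Summed over the list, morning genes reached 640 to 3350 FPKM in BV-3 libraries, against 167 to 469 FPKM in CK libraries. The 4 genes named LHY, 2 of which the definition had selected, made up most of the BV-3 sums, with 487 to 2950 FPKM, against 73.9 to 255 FPKM in CK libraries. The other 14 morning genes overlapped, each of them and in their sums of 153 to 394 FPKM in BV-3 libraries, against 93.6 to 335 FPKM in CK libraries. The later genes summed to 122 to 194 FPKM in 5 BV-3 libraries and to 735 FPKM in BV-3 susceptible 3, against 129 to 267 FPKM in CK libraries. BV-3 susceptible 3 had both the lowest morning sum and the highest later sum under BV-3. A GIGANTEA gene (Zm00001eb337600), a clock gene of the afternoon, stood at 229 FPKM there, with a BV-3 median of 9.63 FPKM and a CK median of 11.6 FPKM. No source used here gives the time of harvest. BV-3 and a difference in harvest time therefore cannot be told apart for any gene that follows the day.

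**Figure D1:**
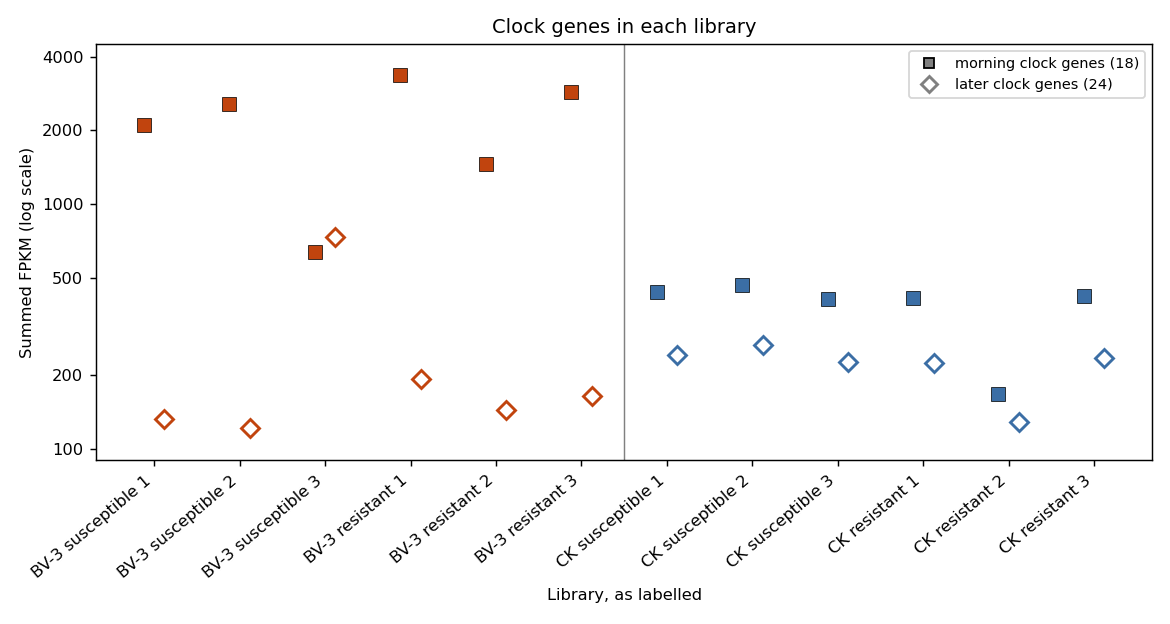
Summed FPKM (log scale) of 18 morning clock genes (filled squares) and 24 later clock genes (open diamonds) in each of the 12 libraries, BV-3 in red and CK in blue. The BV-3 morning sums (640 to 3350) and the CK morning sums (167 to 469) differ through the genes named LHY, without which they overlap (153 to 394 under BV-3, 93.6 to 335 under CK), and the later sum of BV-3 susceptible 3 (735) lay above all others.

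A nitrate reductase gene and a nitrate transporter gene were also among those with large gaps. They were 1 of 8 nitrate reductase genes and 1 of 3 genes above CK among 8 for high-affinity nitrate transport, groups formed after the values were seen with 1 call each. Nitrate reductase [NADH] 1 (Zm00001eb037860), which turns nitrate into nitrite, lay at 5.21 to 23.8 FPKM (median 12.8) in BV-3 libraries, against 0.226 to 1.25 FPKM (median 0.491) in CK libraries. It rose 22.1-fold (log2 fold change 4.47 ± 0.51, adjusted p = 0.0152). A second gene with that name (Zm00001eb176470) was more abundant and overlapped between the treatments. Its median was 42.1 FPKM under BV-3 and 33.7 FPKM under CK, and it was not called (0.43 ± 0.78, adjusted p = 0.772). A high-affinity nitrate transporter 2.4 gene (Zm00001eb162310) lay at 1.83 to 14.1 FPKM in BV-3 libraries, against 0 to 0.131 FPKM in CK libraries, 4 of which held no read. It was called (adjusted p = 0.0326), and no fold is given because CK had so few reads. The other genes of that name, Zm00001eb343430 and Zm00001eb425910, overlapped and were not called (log2 fold change 0.05 and 0.06, adjusted p = 0.956 and 0.958). Both 2.1-type transporter genes, Zm00001eb209690 and Zm00001eb209670, lay above CK at levels of at most 0.972 and 1.55 FPKM and were not called (adjusted p = 0.141 and 0.168). The 3 transporters above CK are also the genes without overlap among the 19 root markers, whose sums are given above. Of these markers 1 was called higher, with a median log2 fold change of 0.06. All 8 genes for high-affinity nitrate transport are on that list and enter its sums. In BV-3 susceptible 2 the activating protein 2.2 gene (Zm00001eb079530) alone gave 23.6 of 36.5 FPKM. The sums are therefore no separate measure of root content for these transporters. Whether the root content of the libraries bears on them was not tested. An ammonium transporter gene (3 member 2, Zm00001eb063910) lay at 24 to 86.8 FPKM in BV-3 libraries, against 3.1 to 16.7 FPKM in CK libraries (2.5 ± 0.43, adjusted p = 0.0326).

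The nitrogen genes below CK were of other kinds. The NIGT1 gene (Zm00001eb406660) had a median of 0.243 FPKM under BV-3 and 2.48 FPKM under CK (log2 fold change -3.78 ± 0.73, adjusted p = 0.0365). HHO3 (Zm00001eb214190), of the same family, lay at 2.21 to 8.75 FPKM in BV-3 libraries, against 12.9 to 31.5 FPKM in CK libraries (-2.35 ± 0.41, adjusted p = 0.0326). In Arabidopsis and rice, proteins of this family repress nitrate transporter genes. HHO6 (Zm00001eb058460) lay at 1.04 to 6.42 FPKM under BV-3 and 7.31 to 18.6 FPKM under CK and missed the threshold (adjusted p = 0.0526). Of 5 genes named HHO or NIGT1, a group formed after the values were seen, 3 lay below CK and 2 fell, with a median of -3.78. NADH glutamate synthase 1 (Zm00001eb156610), which builds ammonium into amino acids, also fell (-1.15 ± 0.25, adjusted p = 0.0451). The list of nitrogen uptake and assimilation, which does not hold the HHO and NIGT1 genes, had 108 members. Of these 7 lay above (6.48%) and 4 below (3.7%), 4 were called higher (3.7%) and 1 lower (0.926%), and the median was 0.45.

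WRKY factors, which bind the promoters of defence genes, were the list with the highest share above CK among those of 50 or more genes. Of 125 genes 13 (10.4%) lay above and 0 below, 11 were called higher and 0 lower, and the median log2 fold change was 1.09. WRKY24 (Zm00001eb441670) lay at 26.1 to 83.2 FPKM in BV-3 libraries, against 3.26 to 9.73 FPKM in CK libraries (2.87 ± 0.39, adjusted p = 0.0234). A second gene with that name (Zm00001eb149300) lay at 19.2 to 75.6 FPKM in BV-3 libraries, against 2.52 to 9.47 FPKM in CK libraries (3.03 ± 0.40, adjusted p = 0.0234). The genes for WRKY66 (Zm00001eb149550, 2.49 ± 0.40, adjusted p = 0.0326), WRKY70 (Zm00001eb395130, 3.52 ± 0.53, adjusted p = 0.0308) and WRKY53 (Zm00001eb178550, 2.84 ± 0.56, adjusted p = 0.0368) rose as well. Among the 13, a WRKY28 gene had the highest median level. This gene (Zm00001eb275080) lay at 123 to 553 FPKM under BV-3 and 10.8 to 93.3 FPKM under CK and missed the threshold (adjusted p = 0.06), while another WRKY28 gene (Zm00001eb388620) rose (3.35 ± 0.55, adjusted p = 0.0326). Among proteins that bind WRKY factors, VQ motif genes Zm00001eb395660 (3.90 ± 0.78, adjusted p = 0.0379) and Zm00001eb274360 (1.97 ± 0.39, adjusted p = 0.0379) rose.

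**Figure D2:**
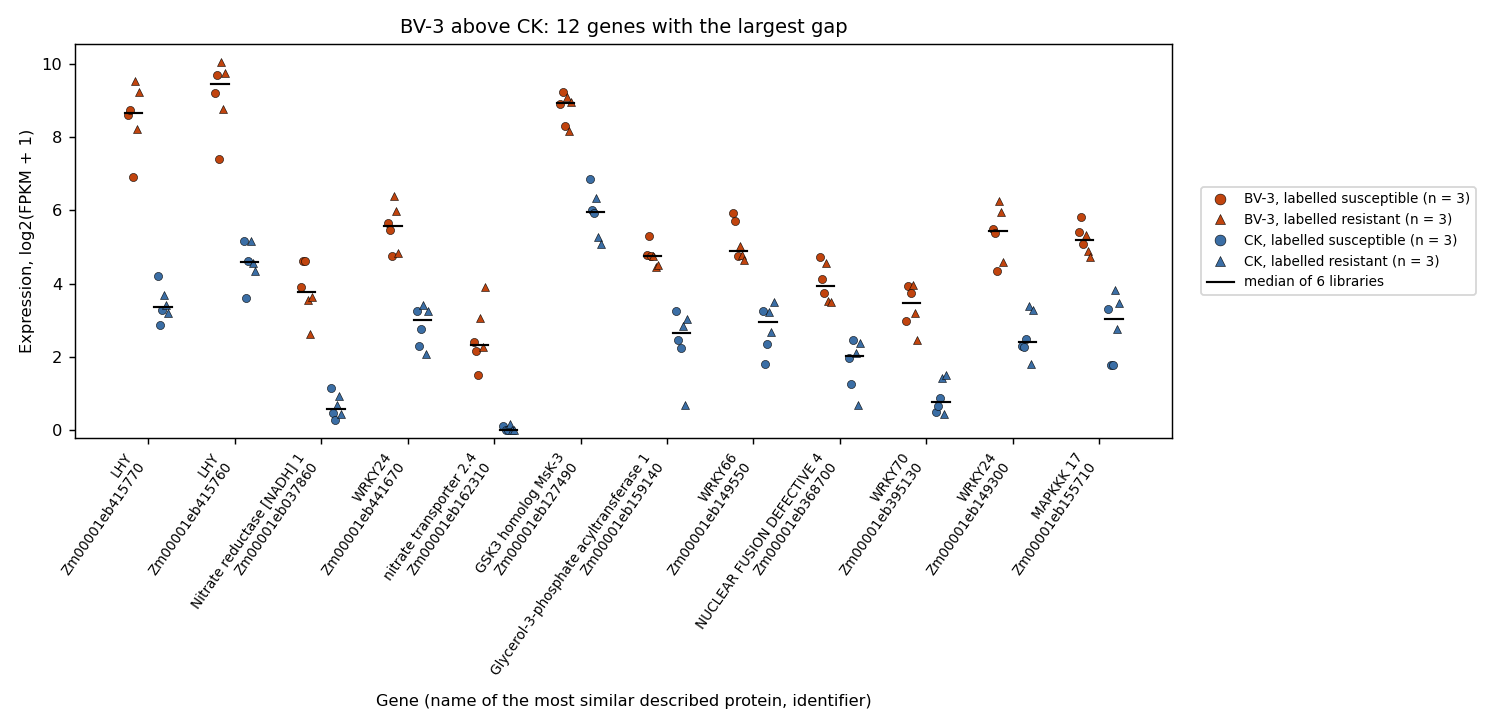
Expression as log2(FPKM + 1) of the 12 named genes above CK with the largest gaps, BV-3 in red left of CK in blue, circles for libraries labelled susceptible and triangles for those labelled resistant (n = 3 each), with bars at the median of 6. No CK library reached any BV-3 library in these genes, and the LHY gene Zm00001eb415770 had the widest gap, with 120 FPKM as the lowest BV-3 level and 17.5 FPKM as the highest CK level.

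Upstream of the WRKY factors, MAP kinase genes showed the next highest share: of 74 genes 6 (8.11%) lay above and 0 below, 3 were called higher, and the median was 0.48. Of these, 4 carry the name MAPKKK17, a kinase at the head of the cascade. Zm00001eb155710 lay at 25.4 to 55.9 FPKM in BV-3 libraries, against 2.43 to 13.2 FPKM in CK libraries (2.48 ± 0.46, adjusted p = 0.0352), and Zm00001eb155720 rose too (2.09 ± 0.41, adjusted p = 0.0368). The others, Zm00001eb360950 and Zm00001eb360940, lay above CK and missed the threshold (adjusted p = 0.0569 and 0.0963). These are 2 pairs of neighbours in identifier order, whose reads could be shared. At the end of the cascade, MPK6 (Zm00001eb393610) lay at 42 to 62.9 FPKM in BV-3 libraries, against 16.5 to 30.7 FPKM in CK libraries (1.14 ± 0.20, adjusted p = 0.0336).

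Receptor kinases of the wall-associated, cysteine-rich and lectin types followed: of 185 genes 14 (7.57%) lay above and 0 below, 10 were called higher and 1 lower, with a median of 0.69. An L-type lectin receptor kinase gene (Zm00001eb281090) lay at 1.21 to 5.35 FPKM in BV-3 libraries, against 0 to 0.258 FPKM in CK libraries (4.82 ± 0.95, adjusted p = 0.0373). A cysteine-rich receptor kinase gene (Zm00001eb252380, 2.05 ± 0.32, adjusted p = 0.0326) and 2 wall-associated kinase genes, Zm00001eb316880 (2.25 ± 0.38, adjusted p = 0.0326) and Zm00001eb247540 (2.29 ± 0.39, adjusted p = 0.0326), rose. Wall-associated kinases span the membrane and touch the cell wall. The chitin elicitor receptor kinase 1 gene (Zm00001eb279230), for the sensing of fungal chitin, lay at 4.11 to 11.7 FPKM under BV-3 and 2.14 to 3.71 FPKM under CK and was not called (adjusted p = 0.0902). Of 246 genes for calcium sensors and kinases 5 (2.03%) lay above, 6 (2.44%) were called higher and 0 lower, and the median was 0.23. These shares are nearer to those over all genes tested, 1.29% above and 1.01% called higher. Calmodulin-like CML31 (Zm00001eb140600) lay at 52.8 to 96.8 FPKM in BV-3 libraries, against 9.98 to 33.9 FPKM in CK libraries (2.06 ± 0.26, adjusted p = 0.019).

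Jasmonate genes held 5 above and 0 below of 75 (6.67%), 4 called higher, 0 lower and a median of 1.17. All 5 were TIFY genes, whose proteins restrain jasmonate responses and are themselves induced by the hormone. TIFY 11e (Zm00001eb048770) lay at 30.4 to 278 FPKM in BV-3 libraries, against 4.02 to 29 FPKM in CK libraries (2.94 ± 0.65, adjusted p = 0.0465), and TIFY 6a (Zm00001eb179390) rose 2.34-fold (1.23 ± 0.21, adjusted p = 0.0326). The most abundant, TIFY 11b (Zm00001eb006000), lay at 366 to 1070 FPKM under BV-3 and 103 to 316 FPKM under CK and was not called (adjusted p = 0.0761). MYC2 (Zm00001eb024330), the main activator of jasmonate genes, lay above CK without a call (adjusted p = 0.0766), and MTB1 (Zm00001eb155410), a bHLH factor that restrains MYC2 in tomato, rose (2.71 ± 0.54, adjusted p = 0.0379).

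Ethylene genes held 9 above (4.86%) and 1 below (0.541%) of 185, 13 called higher (7.03%) and 1 lower (0.541%), with a median of 0.82. ERF109 (Zm00001eb100800) lay at 41.9 to 56.9 FPKM in BV-3 libraries, against 7.76 to 32.8 FPKM in CK libraries (1.65 ± 0.35, adjusted p = 0.0433), and ERF4 (Zm00001eb150840) at 87.7 to 249 FPKM in BV-3 libraries, against 30.5 to 81.2 FPKM in CK libraries (1.80 ± 0.31, adjusted p = 0.0326). Both encode transcription factors of the ethylene response family. The ethylene sensor ERS1-like gene (Zm00001eb054170) had 14 to 16.3 FPKM under BV-3 and 10.8 to 13.9 FPKM under CK and was not called (adjusted p = 0.2). A gene described as ethylene-responsive protein (Zm00001eb057350) fell (-2.72 ± 0.60, adjusted p = 0.0463).

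Phenylpropanoid genes make lignin precursors and phenolic defence compounds. Of 115 such genes 6 lay above (5.22%) and 0 below, 9 were called higher (7.83%) and 1 lower (0.87%), with a median of 0.84. Cinnamate 4-hydroxylase (trans-cinnamate 4-monooxygenase, Zm00001eb346150), at the entry of the pathway, lay at 63.5 to 237 FPKM in BV-3 libraries, against 27.7 to 61.4 FPKM in CK libraries (1.97 ± 0.33, adjusted p = 0.0326). Caffeoyl-CoA O-methyltransferase 1 (Zm00001eb271480) lay at 126 to 254 FPKM in BV-3 libraries, against 35 to 117 FPKM in CK libraries (1.56 ± 0.29, adjusted p = 0.0352). The hydroxycinnamoyltransferase 4 gene (Zm00001eb180060, 3.31 ± 0.62, adjusted p = 0.0355) rose. Genes for 4-coumarate-CoA ligase 3 (Zm00001eb233720) and cinnamoyl-CoA reductase 1 (Zm00001eb387920) lay above CK and were not called (adjusted p = 0.082 and 0.108). From another list, of cytochrome P450 genes, the gene for P450 84A1 (Zm00001eb043700, 3.55 ± 0.67, adjusted p = 0.0355) rose. Of those 158 genes 3 (1.9%) lay above and 4 (2.53%) were called higher, against 1.29% and 1.01% of all genes tested. P450 84A1 is the ferulate 5-hydroxylase of Arabidopsis, a step towards syringyl lignin.

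Several other defence and growth lists held no gene without overlap. Of 154 pathogenesis-related and chitinase genes none lay apart (0 above, 0 below) and none was called (0), with a median of 0.33. The same held for 34 benzoxazinoid genes, the maize defence compounds, for 110 heat shock genes, for 134 cell wall expansion genes and for 82 photosystem and light-harvesting genes, in that none lay apart without overlap. Their medians were 0.50, -0.04, 0.42 and -0.19. Over all genes tested only 1.29% lay above and 1.25% below, so a list of 34 genes could hold none by its size alone. Of 122 intracellular NLR immune receptors 3 (2.46%) lay above and 2 (1.64%) were called higher, against 1.29% and 1.01% of all genes tested. Of 355 cytosolic ribosomal protein genes 3 lay below and 0 were called, with a median of -0.72, and the summed level of that list was highest in CK resistant 2, as given above. Over all 5574 genes on at least 1 of the 52 lists, 135 lay above (2.42%) and 21 below (0.377%).

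**Figure D3:**
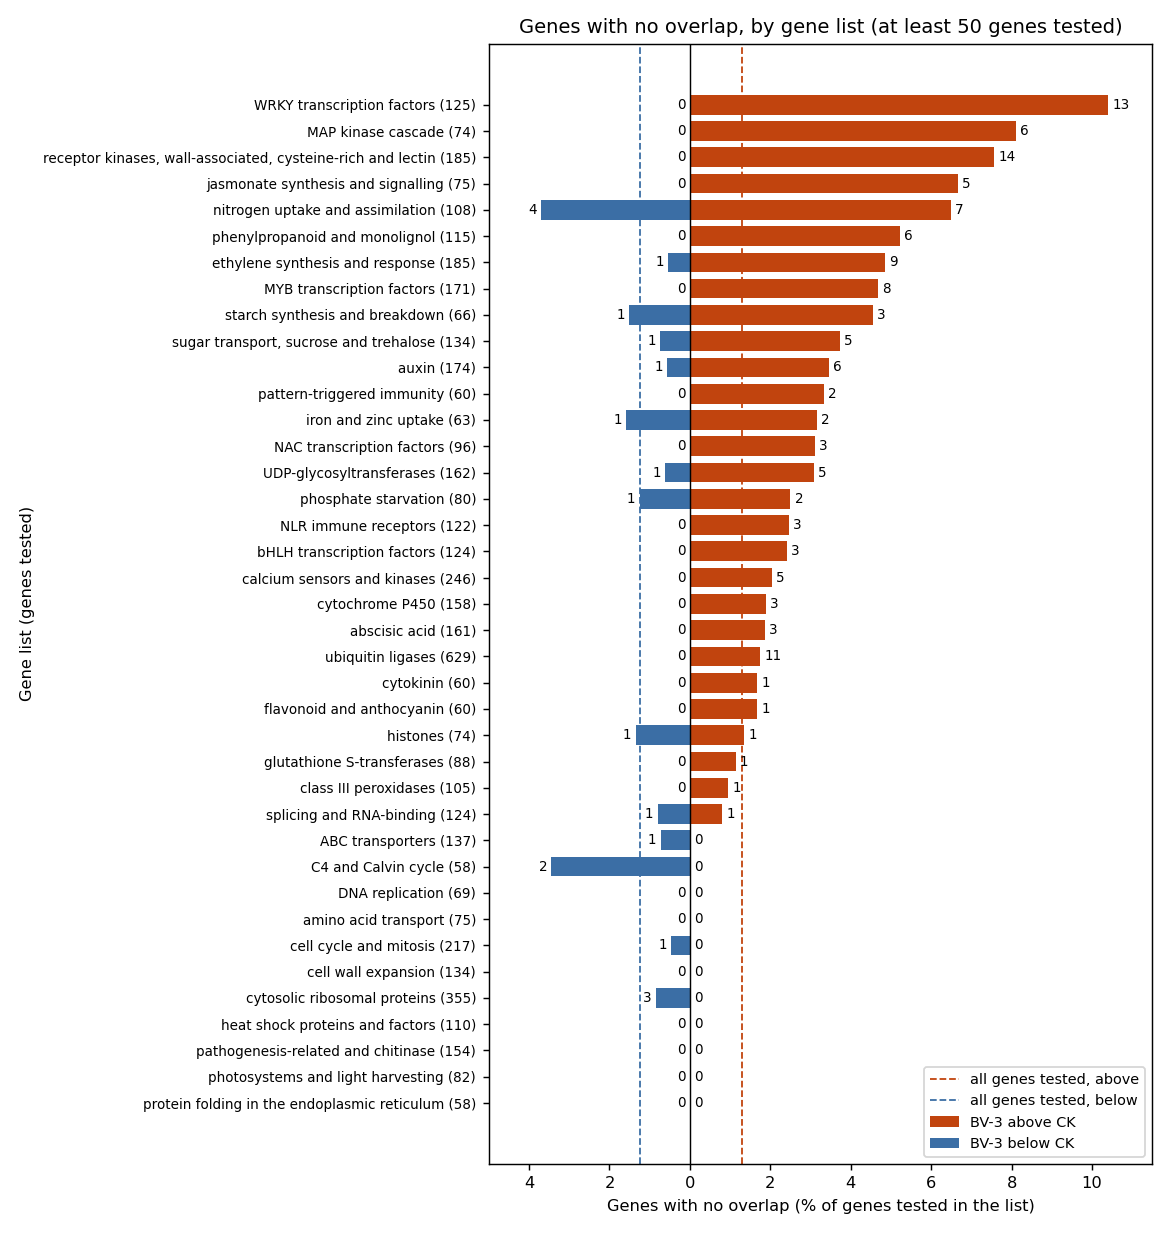
Share of the tested genes of each list (at least 50 tested, number in parentheses) that lay above CK (red, to the right) or below CK (blue, to the left) without overlap, in percent, with the counts at the bars and dashed lines at the shares over all genes tested (1.29% above, 1.25% below). WRKY factors reached 10.4% above with none below, while nitrogen genes had members on both sides.

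Several genes with large gaps stood outside these lists. A GSK3-type kinase gene named MsK-3 (Zm00001eb127490), of the shaggy family of protein kinases, lay at 287 to 598 FPKM in BV-3 libraries, against 32.9 to 116 FPKM in CK libraries (2.85 ± 0.41, adjusted p = 0.0256). Of 15 genes of that family, grouped after the values were seen, 5 lay above and 0 below and 3 were called higher, with a median of 0.68. Kinases of this family act in brassinosteroid and stress signalling. Glycerol-3-phosphate acyltransferase 1 (Zm00001eb159140), of glycerolipid and cutin synthesis, lay at 21 to 38.6 FPKM in BV-3 libraries, against 0.621 to 8.54 FPKM in CK libraries (2.39 ± 0.47, adjusted p = 0.0373). A gene named NUCLEAR FUSION DEFECTIVE 4 (Zm00001eb368700), a membrane protein of the transporter type, rose as well (2.54 ± 0.48, adjusted p = 0.0352). A further pair of groups was formed after the values were seen. Of 27 EXO70 subunits of the exocyst, which tethers secretory vesicles, 4 lay above (14.8%) and 0 below, with a median of 0.52. Of 68 ubiquitin-conjugating enzymes 5 lay above (7.35%) and 0 below, with a median of 0.06. Each group had 2 calls, all higher.

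The genes below CK shared less by name. Of the 427, 21 were on a list, and 114 were models beyond the annotation, 1.99% of the 5741 such models tested, against 17 such models above CK (0.296%). Part of this came from a repeated profile, found after the values were seen. Of the models tested 96 followed 1 profile over the 12 libraries, with a correlation over 0.95 to the model NewGene_17559 on log2(FPKM + 0.1). Of these, 73 were models beyond the annotation, none had an informative name (0) and 24 had the same description of an uncharacterised protein. Their summed level was 54.9 to 150 FPKM in BV-3 libraries, against 200 to 816 FPKM in CK libraries. They made up 79 of the 427 genes below CK (18.5%) and 70 of the 256 genes called lower. Whether they share reads as copies of 1 sequence was not tested. Without them, 348 genes lay below CK, and the edgeR fit called 319 genes, 224 higher and 95 lower.

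Among named genes below CK, the arginine decarboxylase 2 gene (Zm00001eb185400) had the largest gap. Its product makes agmatine, a precursor of polyamines, from arginine. It lay at 0 to 0.321 FPKM (median 0.024) in BV-3 libraries, against 2.74 to 89.7 FPKM (median 52.4) in CK libraries (adjusted p = 0.0234). No fold is given, since 2 BV-3 libraries held no read. The polyamine oxidase 1 gene (Zm00001eb413630), for the breakdown of polyamines, lay at 20.4 to 120 FPKM under BV-3 and 163 to 410 FPKM under CK and missed the threshold (adjusted p = 0.0655). Enzyme genes of arginine synthesis lay below as well: carbamoyl-phosphate synthase small chain (Zm00001eb252240) at 10.5 to 20.5 FPKM under BV-3 and 22.2 to 36.6 FPKM under CK, and ornithine carbamoyltransferase (Zm00001eb252020) at 7.18 to 12.2 FPKM under BV-3 and 12.3 to 28.3 FPKM under CK, neither of them called (adjusted p = 0.0574 and 0.0873). Of 54 genes of the arginine biosynthesis pathway in the table's KEGG annotation 3 lay below and 0 above, and 2 were called lower. The share below was 5.56%, against 1.25% of all genes tested. This pathway is picked out of 124, and others had higher shares below, such as histidine metabolism (8.57%). Of 82 genes of arginine and proline metabolism 3 lay below and 2 above.

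Further genes with large gaps below CK had varied roles. A PVR3-like gene (Zm00001eb305230) lay at 0.12 to 1.36 FPKM in BV-3 libraries, against 4.72 to 29.1 FPKM in CK libraries (-4.90 ± 0.69, adjusted p = 0.0234). Alpha-galactosidase 1 (Zm00001eb044860), which splits galactose from oligosaccharides, lay at 7.56 to 18.2 FPKM in BV-3 libraries, against 32.9 to 157 FPKM in CK libraries (-2.5 ± 0.40, adjusted p = 0.0326). A subtilisin-chymotrypsin inhibitor gene (Zm00001eb355980), for a small inhibitor of proteases, had a median of 7.28 FPKM under BV-3 and 34 FPKM under CK (-2.41 ± 0.49, adjusted p = 0.0405). The kinase gene STY17 (Zm00001eb319970) lay at 0.437 to 1.77 FPKM in 5 BV-3 libraries and at 13.6 FPKM in BV-3 resistant 3, against 21.1 to 57 FPKM in CK libraries (-4.33 ± 0.98, adjusted p = 0.0498). A PQ loop repeat gene (Zm00001eb333170, -2.96 ± 0.38, adjusted p = 0.019) and the receptor-like cytosolic kinase gene RBK1 (Zm00001eb130700, -1.36 ± 0.17, adjusted p = 0.019) fell too.

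Some differences below CK were small and even. An IscA-like gene (Zm00001eb042730), for the assembly of iron-sulfur clusters, lay at 12.3 to 15.1 FPKM in BV-3 libraries, against 22.7 to 35.4 FPKM in CK libraries (-1.02 ± 0.19, adjusted p = 0.0365). RNA pseudouridine synthase 6 (Zm00001eb110780), which modifies RNA, lay at 7.15 to 9.89 FPKM in BV-3 libraries, against 14.4 to 20.5 FPKM in CK libraries (-1.02 ± 0.14, adjusted p = 0.0234). A gene of the phosphoadenosine phosphosulfate reductase family (Zm00001eb333440) lay at 19.7 to 23.2 FPKM in BV-3 libraries, against 33.2 to 46.1 FPKM in CK libraries (-0.81 ± 0.16, adjusted p = 0.0365). The definition itself favours genes with little spread within a treatment.

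**Figure D4:**
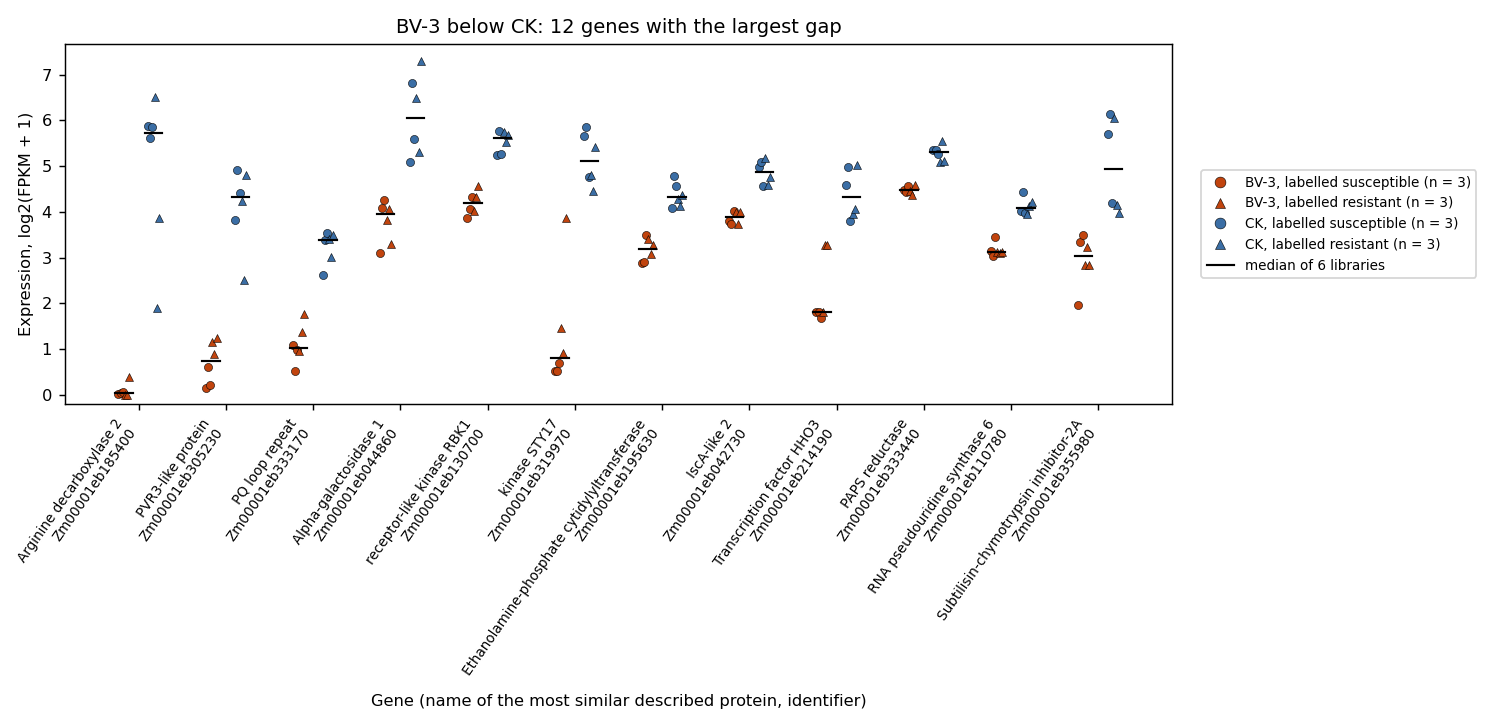
Expression as log2(FPKM + 1) of the 12 named genes below CK with the largest gaps, BV-3 in red left of CK in blue, circles for libraries labelled susceptible and triangles for those labelled resistant (n = 3 each), with bars at the median of 6. Arginine decarboxylase 2 lay between 0 and 0.321 FPKM under BV-3 and between 2.74 and 89.7 FPKM under CK, while the gene of the phosphoadenosine phosphosulfate reductase family was separated by a narrow and even difference.

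Groups of the genes below CK were formed after their values were seen and serve as description. Names that carry the word chloroplastic or mitochondrial made up 2495 genes, of which 50 lay below (2.0%) and 18 above (0.721%), 28 were called lower and 17 higher, with a median of -0.36. Phospholipid synthesis, with 25 genes, held 5 below and 0 above, and its median of -0.04 was close to the -0.03 of all genes tested. The wider KEGG pathway of glycerophospholipid metabolism, with 214 genes, held 9 below (4.21%) and 4 above (1.87%), with a median of 0.03. Of the 25 genes, the one for CDP-ethanolamine synthesis from ethanolamine phosphate (Zm00001eb195630, -1.2 ± 0.21, adjusted p = 0.0326) and one for CDP-diacylglycerol synthesis from phosphatidate (Zm00001eb230950, -0.75 ± 0.16, adjusted p = 0.0451) fell. Both activate precursors of membrane lipids. Of 7 folate genes 4 lay below, and the FolD 4 gene (Zm00001eb208240), for an enzyme that interconverts folate forms, fell (-0.77 ± 0.16, adjusted p = 0.0436). Of 82 tRNA ligase genes 3 lay below (3.66%, against 1.25% of all genes tested), with a median of -0.53. The ligase genes for alanine (Zm00001eb033330, -1.29 ± 0.20, adjusted p = 0.0326) and cysteine (Zm00001eb063470, -1.08 ± 0.22, adjusted p = 0.0385) fell. By contrast, of 1023 genes named as transcription factors 42 lay above (4.11%) and 5 below (0.489%), 35 were called higher and 3 lower.

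Within the labelled classes the genes above CK had a median log2 fold change of 2.01 in the libraries labelled susceptible and 1.74 in those labelled resistant, and the genes below had -1.49 and -1.18. The effect was the larger one in the susceptible class for 280 of 441 genes above and 267 of 427 below. No gene at all was called for a difference of the BV-3 effect between the classes by edgeR's quasi-likelihood test with Benjamini-Hochberg adjustment (0 genes, 0%), with 4688 genes at an unadjusted p under 0.05 and 2 genes called by limma. At that unadjusted threshold stood 34 of the genes above and 27 of those below, and 13.7% of all genes tested. Fitted within a class, BV-3 against CK gave 2125 calls (6.2%) for the libraries labelled susceptible and 0 calls (0%) for those labelled resistant, with 3452 genes at an unadjusted p under 0.05 in the resistant class. In the susceptible class the CK libraries 2 and 3 carried the markers of the resistant class, so BV-3 and the maize line cannot be told apart there. Leaving out the library CK susceptible 1 gave 2151 calls for the difference between the classes. All CK libraries left then carried the markers of the resistant class, so a differing BV-3 effect and the maize line cannot be told apart in these calls.

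**Figure D5:**
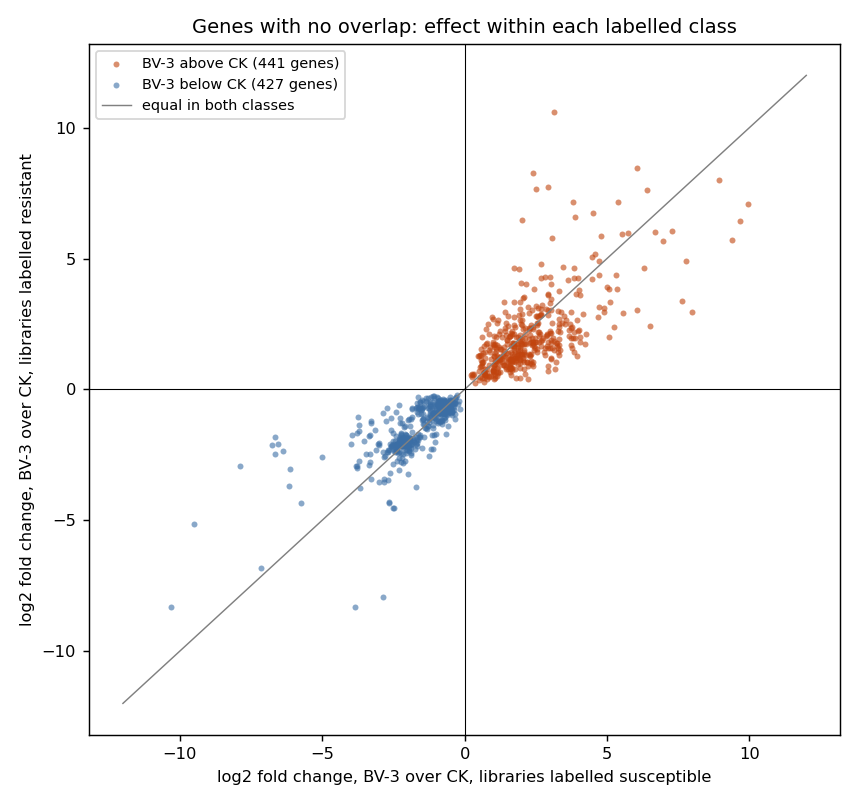
log2 fold change of BV-3 over CK in the libraries labelled susceptible (x axis) and labelled resistant (y axis) for the 441 genes above CK (red) and the 427 below (blue), with a line where both are equal. All points lie in the upper right or lower left of the plot, which the choice of genes fixes, and the medians are 2.01 and 1.74 for the red points and -1.49 and -1.18 for the blue points.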

How the data were processed

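The authors deposited 1 table with raw counts and FPKM values per gene and library, per the file headers. Libraries were poly(A)-selected, strand-specific and paired-end, per the labels' protocols. The submitters' processing notes name the build B73 RefGen, version 4; aligner, counter and strand setting are not given in the sources used. The identifiers are of a later form (0 matched the reference table of assembly Zm-B73-REFERENCE-NAM-5.0), so no coordinates or sequences are given. Of 52934 lines, 2 named no gene and were dropped, and 29415 genes had an informative name.

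Counts as deposited were tested with edgeR 4.0.16 (R 4.3.3): TMM scaling, edgeR's filter on low counts (34291 genes kept), and a quasi-likelihood fit of all 12 libraries with class and treatment as terms. The fit had 9 residual degrees of freedom and a common biological coefficient of variation of 0.731. Effects within a class and their difference came from a fit of 4 group means. The threshold for a call was 0.05 after Benjamini-Hochberg adjustment, and a standard error is the log2 fold change divided by the square root of F. Totals of 27.0 to 37.8 M (mega) counts limit precision for genes with few reads. Absence of overlap was read from FPKM and carries no test.

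Named genes were the 12 per direction with the largest gap, an informative name and a higher-group mean of 5 FPKM or more, and per list up to 4 members with such a mean of 1 FPKM or more; other genes were named after their values were seen. All members and lists were chosen with earlier results of these data known. Line markers had over 2 CPM in every BV-3 library of a class and at most 2 counts in each of the other, and counted as detected above 1 CPM. The script was tested on simulated data. The libraries of a group were compared by chi-square over genes, and none was a repeat of another. Alternatives were limma 3.58.1 on log2(FPKM + 1) and log2(FPKM + 0.1), DESeq2 1.42.0 and its size factors, other filters and designs, and leaving out libraries.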

Additional observations from a re-analysis of the deposited data

Results flagged for a closer look

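Within treatments, 9 of 58 sets of 6 values held a library far from the others by Dixon's gap test. That test marks about 1 in 20 by chance only for independent sets of normally distributed values. The genes were picked by their values, and several of the sets come from CK resistant 2, so these rates cannot be compared. In BV-3 libraries, glycerol-3-phosphate acyltransferase 1 (Zm00001eb159140) stood at 38.6 FPKM in susceptible 2, with the others at 21 to 26.4 FPKM. RNA pseudouridine synthase 6 (Zm00001eb110780) stood at 9.89 FPKM in susceptible 3, with the others at 7.15 to 7.8 FPKM. BV-3 resistant 3 stood apart for genes below CK: arginine decarboxylase 2 (Zm00001eb185400) was at 0.321 FPKM there and at 0 to 0.0498 FPKM in the other BV-3 libraries, and the kinase gene STY17 (Zm00001eb319970) was at 13.6 FPKM there and at 0.437 to 1.77 FPKM in the others.

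The later clock genes summed to 735 FPKM in BV-3 susceptible 3, with the other BV-3 libraries at 122 to 194 FPKM. In CK resistant 2 the morning clock genes summed to 167 FPKM, with the other CK libraries at 409 to 469 FPKM, and the later clock genes to 129 FPKM, with the others at 225 to 267 FPKM. The same library had a root marker sum of 379 FPKM, with the others at 3.64 to 25.9 FPKM, and a cytosolic ribosomal protein sum of 81900 FPKM, with the others at 11500 to 17900 FPKM. Without CK resistant 2, 1966 genes lay apart without overlap and edgeR called 2514 genes.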

How the results depend on the processing

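With 601 calls from edgeR on all libraries, a fit of 4 group means gave 1844, DESeq2 5472, limma 1322 on log2(FPKM + 1) and 1425 on log2(FPKM + 0.1), no filter on low counts 287, and leaving out CK susceptible 2 and 3 together with CK resistant 2 gave 112. Without CK susceptible 2 and 3 alone the count was 0. Leaving out each library gave 2 to 2514. Without the 96 models of 1 profile, an alternative chosen after seeing the data, the count was 319. Of the 868 genes without overlap, 156 had a gap of at least 1.5-fold, the count was 2555 without those 3 CK libraries and 935 to 1966 without each library, where fewer libraries ease the definition. For the difference between classes, limma on log2(FPKM + 1) gave 2 calls, the edgeR fits with another filter, scaling or block 0, and leaving out each library 0 to 2151. The 24 named genes kept their direction under all of these, which their selection on the same libraries largely fixes, and 0 to 24 of them kept their call. Whether replicate numbers pair the libraries was not settled. Of 18 pairs 5 correlated over 0.1 (-0.186 to 0.552), and 7 of 12 libraries correlated best with their own number. The highest values, 0.5 and 0.552, were between BV-3 resistant and CK resistant libraries numbered 1 and 2. With a replicate block, 92 genes were called. Of the 24 named genes 15 kept their call under the block and 21 with no filter, and of the 50 calls among 95 list members 16 and 36 did, while leaving out libraries kept 0 to 50. The causes were not tested. Depth was 32.3 to 37.8 M counts in BV-3 libraries and 27.0 to 36 M counts in CK libraries, and it limits the genes with few reads. CK susceptible 2 and all CK resistant libraries, at 27.0 to 30.4 M counts, held fewer than any BV-3 library.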

Other observations

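Some further genes lay apart outside the groups described. Alcohol dehydrogenase 2 (Zm00001eb168550), an enzyme of fermentation, lay at 40 to 110 FPKM in BV-3 libraries, against 10.5 to 26.7 FPKM in CK libraries (edgeR log2 fold change 1.89 ± 0.21, adjusted p = 0.0152). It was the 1 gene above CK of 36 for fermentation and alternative oxidase, of which 2 were called higher and 1 lower. Histone H3.3 (Zm00001eb378250) lay at 178 to 335 FPKM in BV-3 libraries, against 84.1 to 146 FPKM in CK libraries (1.2 ± 0.22, adjusted p = 0.0352). Of the 74 histone genes 1 lay above (1.35%) and 1 below (1.35%), near the 1.29% and 1.25% of all genes tested. The gene for a 14-3-3 protein, GF14-6 (Zm00001eb080570), which binds phosphorylated proteins, lay at 132 to 265 FPKM in BV-3 libraries, against 60.9 to 114 FPKM in CK libraries (1.34 ± 0.24, adjusted p = 0.0336).

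Of 134 sugar transport, sucrose and trehalose genes 5 lay above (3.73%) and 1 below (0.746%), 5 were called higher (3.73%) and 2 lower (1.49%), and the median was 0.17. Of 66 starch genes 3 lay above (4.55%) and 1 below (1.52%), 1 was called higher (1.52%) and 1 lower (1.52%), and the median was -0.32. Over all genes tested 1.29% lay above and 1.25% below, and 1.01% were called higher and 0.747% lower. Granule-bound starch synthase 1b (Zm00001eb305810), which makes amylose, rose (1.89 ± 0.42, adjusted p = 0.0465), and a starch branching enzyme gene (Zm00001eb228530) fell (-1.16 ± 0.25, adjusted p = 0.046). The sugar transporter gene MST4 (Zm00001eb008810) lay at 17.6 to 305 FPKM in BV-3 libraries, against 2.27 to 13 FPKM in CK libraries (2.93 ± 0.61, adjusted p = 0.0413). A cell wall invertase gene (beta-fructofuranosidase, insoluble isoenzyme 7, Zm00001eb067230), which splits sucrose outside the cell, fell (-0.88 ± 0.17, adjusted p = 0.0368). A vacuolar aquaporin gene (TIP3-1, Zm00001eb404170) fell (-3.39 ± 0.70, adjusted p = 0.0413), as the 1 gene without overlap of 38 aquaporin genes, of which 1 was called higher and 1 lower, with a median of 0.86.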
